A study of Mus musculus with 12 samples.

Results

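The gene segments that encode the αβ T cell receptor were examined in RNA from sorted mouse T cells. A row of the count table was included when its symbol was that of an α or β variable (Trav, Trbv) or joining (Traj, Trbj) segment, or was Trac, Trbc1 or Trbc2, and when it held at least 10 reads summed over all 12 libraries. Of 52459 rows, 240 had such a symbol and 164 met the minimum: 68 Trav, 58 Traj, 21 Trbv, 14 Trbj and 3 constant genes. Of the other 76 rows, 61 were at 0 and 15 held 1 to 9 reads. The highest sum left out was 9 reads (Trav11n), and the lowest sum included was 12 (Trav3-4).

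The mice were wild-type, labelled C57BL/6, or knockout for the γδ receptor, with no strain in the labels, and were 7 weeks old at the start. They were fed for 6 weeks with either a control diet or one deficient in methionine and choline (MCD), which is used to cause steatohepatitis. CD4+ T cells were sorted from both genotypes and γδ T cells from wild-type mice only. This gave 6 groups of 2 libraries: wild-type CD4+ control (replicates 2 and 3) and MCD (1 and 3), knockout CD4+ control (1 and 2) and MCD (1 and 2), and wild-type γδ control (6 and 7) and MCD (2 and 4). The label of γδ MCD replicate 2, D2-D1_GDT, also holds D1, the label of wild-type CD4+ MCD replicate 1, and does not say why. The labels name no tissue, do not say which gene the knockout removes, and do not say that replicates are separate mice. The p-values therefore measure only the spread between these samples.

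A T cell receptor chain is built in the thymus by joining 1 variable segment to 1 joining segment (with a diversity segment between them in β and δ chains), and the joined exon is spliced to a constant gene. A CD4+ or CD8+ T cell carries an α and a β chain, and a γδ T cell carries a γ and a δ chain. The δ segments lie inside the α locus, between the Trav and Traj segments, and some Trav segments, marked -dv in their names, can also join δ segments. Invariant natural killer T (NKT) cells, which are common in mouse liver, share an α chain made of Trav11 and Traj18. Mucosal-associated invariant T (MAIT) cells share one made of Trav1 and Traj33.

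Total counts per library were 17035638 to 23203603. Segments and constants took 0.109% to 0.153% of the counts in CD4+ libraries and 0.0126% to 0.0379% in γδ libraries. The sort labels were checked against marker genes. Cd4 had 13734 to 30107 reads in CD4+ libraries and 18 to 52 in γδ libraries, whereas the δ constant gene Trdc had 5 to 165 in CD4+ and 7552 to 14401 in γδ libraries. Within CD4+ libraries Trdc overlapped between genotypes, at 66, 165, 80 and 20 reads in knockout and 18, 62, 57 and 5 in wild-type. A less clean split was seen for the γ constant genes Tcrg-C1, Tcrg-C2 and Tcrg-C4. Each held 3142 to 20691 reads per γδ library. Among CD4+ libraries of the control diet, each held 1350 to 2824 reads in wild-type but 23 to 214 in knockout. On MCD these ranges were 268 to 879 and 26 to 860. Of these genes and Trdc, 1 was lower in knockout CD4+ T cells at an adjusted p of 0.0388 (edgeR quasi-likelihood test, averaged over diets). Genes listed for other cells were also present in γδ libraries. The summed level of 10 macrophage genes was 904 to 2066 CPM, against 13.7 to 58.6 CPM in CD4+ libraries. Lyz2 (12109 to 23117 reads) and Csf1r (2721 to 4069 reads) were the highest of them in γδ libraries. Clec4f, Marco and Cd5l were among those that overlapped. They had 0 to 155, 0 to 3 and 3 to 128 reads in γδ libraries. In CD4+ libraries they had 0 to 85, 0 to 50 and 0 to 163 reads. Against wild-type CD4+ T cells, averaged over diets, 8 of the 10 were higher and 2 lower. With edgeR 3 passed as higher at the threshold given below. CPM are counts relative to library size, scaled by TMM, a correction for library composition. For 6 CD8 T cell genes the sums were 184 to 398 against 15.2 to 106 CPM. Of these, Cd8a had 769 to 6327 reads in γδ and 1 to 242 in CD4+ libraries. Cd8b1 overlapped, at 31 to 349 against 3 to 142 reads. Of these macrophage genes 0 were at 0 in both γδ control libraries and 1 in both γδ MCD libraries, and of the CD8 genes 0 were. The summed level of 10 natural killer cell genes was 539 to 1208 CPM in γδ and 34.0 to 133 CPM in CD4+ libraries. In both γδ control and both γδ MCD libraries 2 of them, Klra8 and Klra4, were at 0. The highest in γδ libraries were Gzmb (1262 to 12834 reads) and Fcer1g (3336 to 5590 reads). γδ MCD replicate 2 stood apart, with 8989 genes at 10 or more reads against 10125 to 13402 in the other 11 libraries and with 8 Trbv reads in all. The part of other cells in the results below was not tested.

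Sequences are shown first because near-identical copies limit which segments can be counted. All annotated sequences are from GENCODE M21 on GRCm38, written 5′ to 3′ on the coding strand. In the Traj sequences capitals mark the letters TTNGGNNNNGG, the part of a joining segment that codes for the conserved phenylalanine-glycine motif; both strands were searched, and capitals are drawn on the coding strand only. The motif was found in 46 of 60 Traj (76.7%), 11 of 14 Trbj (78.6%), 3 of 128 Trav (2.34%) and 2 of 35 Trbv (5.71%) sequences on the coding strand, and on the other strand in 0 Traj, 0 Trbj, 2 Trav and 4 Trbv. Shown are the joining segments of invariant NKT (Traj18) and MAIT cells (Traj33), the pair most used in CD4+ libraries (Traj43, Traj30), 2 at the 5′ end of the array that stood out in γδ libraries (Traj58, Traj61) and the 3′-most one, which separated the genotypes (Traj1).
Traj18: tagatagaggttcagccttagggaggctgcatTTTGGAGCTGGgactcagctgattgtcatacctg
Traj33: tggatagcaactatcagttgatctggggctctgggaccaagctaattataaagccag
Traj43: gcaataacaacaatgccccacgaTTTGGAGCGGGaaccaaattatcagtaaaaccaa
Traj30: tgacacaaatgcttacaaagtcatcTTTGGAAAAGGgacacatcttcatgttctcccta
Traj58: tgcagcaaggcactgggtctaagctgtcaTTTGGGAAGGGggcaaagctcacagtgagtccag
Traj61: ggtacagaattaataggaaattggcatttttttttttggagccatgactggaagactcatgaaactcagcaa
Traj1: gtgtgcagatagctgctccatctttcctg

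Traj18 is a joining segment of 66 bases at chr14:54200777-54200842 (GRCm38, plus strand), Traj33 lies at chr14:54185358-54185414, and Traj1, at chr14:54218814-54218842, is annotated as a pseudogene of 29 bases. Every stretch of 50 bases in the 55 Traj members of that length or more occurred in no other GENCODE transcript, so reads of these segments can be told apart. The same did not hold for Trav segments, many of which exist as near-identical copies along the locus. The Trav11 pair below differs at 8 of 343 bases, in capitals, all of them within bases 1 to 300, which are shown. Trav11 lies at chr14:53519303-53519859 and the Trav11n pseudogene at chr14:53135122-53135678.
Trav11: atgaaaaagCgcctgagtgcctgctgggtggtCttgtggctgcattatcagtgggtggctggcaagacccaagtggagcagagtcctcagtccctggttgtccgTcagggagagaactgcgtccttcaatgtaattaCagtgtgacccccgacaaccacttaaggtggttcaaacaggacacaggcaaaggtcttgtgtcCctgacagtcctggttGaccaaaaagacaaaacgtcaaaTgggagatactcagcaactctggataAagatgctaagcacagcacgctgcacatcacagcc
Trav11n: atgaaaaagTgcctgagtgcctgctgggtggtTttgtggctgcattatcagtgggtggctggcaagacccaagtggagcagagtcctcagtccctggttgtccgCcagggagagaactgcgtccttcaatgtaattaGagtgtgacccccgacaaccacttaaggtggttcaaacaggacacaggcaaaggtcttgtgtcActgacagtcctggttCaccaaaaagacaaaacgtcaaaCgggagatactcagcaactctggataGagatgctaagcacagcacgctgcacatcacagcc

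A further copy, Trav11d (chr14:52824357-52824912), was identical to Trav11 over all 342 of its bases and differed by 1 missing base. Neither Trav11 nor Trav11d held a single stretch of 50 bases that was unique among GENCODE transcripts. Trav11 was at 0 in all 12 libraries, Trav11d held 1 read and Trav11n held 9. Of the 60 Trav rows under the minimum of 10 reads, 42 had no unique stretch of 50 bases, against 0 of the 68 Trav members, whose median share of unique stretches was 55.9%. How reads that match several places were counted is not given in the sources used here. Whether the 0 of Trav11 reflects its copies or a lack of transcripts cannot be told apart.

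The constant genes were the most abundant members. Trac (chr14:54220521-54224206), the only α constant gene, had 444 and 434 CPM (control) and 344 and 338 CPM (MCD) in wild-type CD4+ libraries. Knockout CD4+ libraries had 543 and 655 CPM (control) and 391 and 348 CPM (MCD). γδ libraries had 36.4 and 40.02 CPM (control) and 30.1 and 87.2 CPM (MCD). All 8 CD4+ libraries were above all 4 γδ libraries. Averaged over diets, γδ T cells had 48.4 ± 26.2 CPM and wild-type CD4+ T cells 390 ± 56.7 (SD, n = 4 each), a log2 fold change of -3.03 (SE 0.29; edgeR quasi-likelihood test with Benjamini-Hochberg adjustment over 16218 genes, adjusted p = 5.68e-05). In bulk RNA, fewer cells of a type and less RNA per cell cannot be told apart.

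The β constant genes did not pass the threshold between cell types with all libraries. Trbc1 (chr6:41538218-41539881) had 62.0 and 93.5 CPM in γδ control, 103 and 173 in γδ MCD and 86.5 to 170 in CD4+ libraries (γδ against wild-type CD4+ log2 fold change -0.36, SE 0.27, adjusted p = 0.423). With library-size scaling the log2 fold change of Trbc1 was -1.03 and passed (adjusted p = 0.029). Within the control diet Trbc1 and Trbc2 were each lower in both γδ than in both wild-type CD4+ libraries (log2 fold change -1.07, adjusted p = 0.337, and -0.31, adjusted p = 0.907). Trbc2 (chr6:41546730-41548352) had 163 and 125 CPM in γδ control, 16.1 and 143 in γδ MCD and 151 to 372 in CD4+ libraries (log2 fold change -0.69, SE 0.45, adjusted p = 0.358). γδ MCD replicate 2 was the low value, and without it the log2 fold change of Trbc2 was -0.28 (adjusted p = 0.36). Without γδ MCD replicate 4 it was -1.87, past the threshold (adjusted p = 0.00021). The Trbc genes are near copies, with 492 identical and 20 mismatched bases in their alignment, so their reads may have been split between them. The share of Trbc1 among Trbc reads was 27.5% to 86.4% in γδ and 26.3% to 47.8% in CD4+ libraries (difference of means 12.7 percentage points, exact 2-sided permutation test p = 0.287, adjusted 0.43 over 6 tests).

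**Figure D1:**
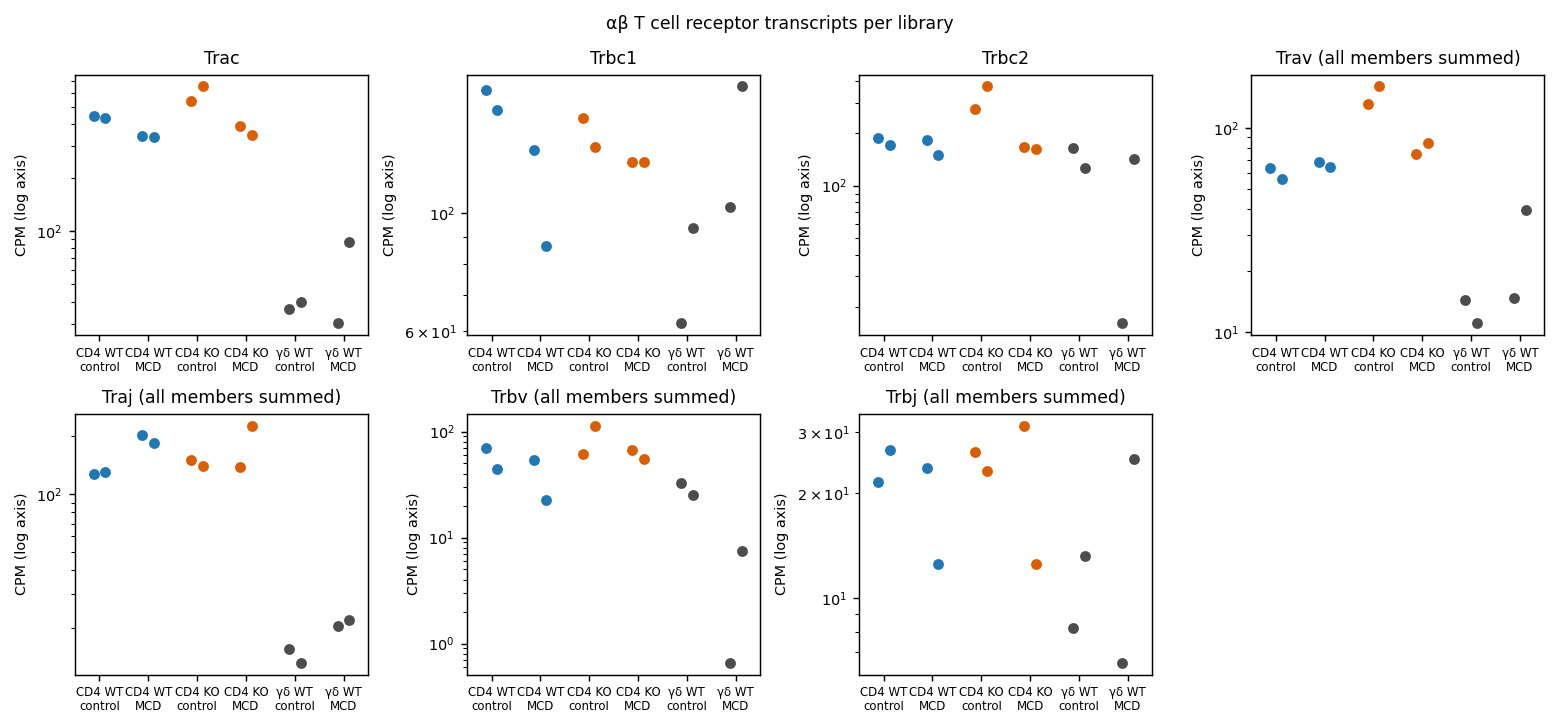
Level of the constant genes and of each segment class summed over its members, in CPM on a log axis; each point is 1 library, placed by group (blue, wild-type CD4+; orange, knockout CD4+; grey, γδ). Trac and the summed Trav and Traj levels are lower in every γδ library than in every CD4+ library, while Trbc1 spans 62.0 to 173 CPM in γδ and 86.5 to 170 CPM in CD4+ libraries.

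Variable and joining segments of the α chain were scarce in γδ T cells. The summed Trav level was 11.05 to 39.5 CPM in γδ libraries and 56.5 to 160 in CD4+ libraries, and the summed Traj level was 13.3 to 22.0 against 127 to 225 CPM. The summed Trbv level was 32.7 and 25.2 CPM in γδ control and 0.66 and 7.52 in γδ MCD libraries, against 22.7 to 114 in CD4+ libraries, and summed Trbj overlapped at 6.52 to 25.1 against 12.5 to 31.2 CPM.

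Of the 164 members, 142 passed the filter on low counts. Against wild-type CD4+ T cells, averaged over diets, 22 of these 142 passed the threshold of an adjusted p of 0.05 in γδ T cells, and all 22 were lower: Trac, 13 Traj and 8 Trav. Over all genes tested 5.96% passed, and 2.53% passed as lower. Most of the 142 entered through their CD4+ counts: filtered on γδ libraries alone, 20 of them were kept. A member at 0 in γδ libraries could only be lower, so the direction of these calls is in large part fixed by the filter and is given as a description. None of the 18 Trbv or 12 Trbj tested passed, though 10 Trbv and 2 Trbj, all lower, had an unadjusted p under 0.05, against 26.0% of all genes. With DESeq2, which tested 25883 genes and called 12.95% of them, 8 Trbv and 3 Trbj passed as lower, Trbv2 among them (adjusted p = 0.000929, against 0.07 with edgeR). These Trbj include Trbj1-5, which was at 0 in the other γδ libraries but had 260 reads in γδ MCD replicate 4. Wild-type CD4+ libraries had 34 to 238 reads of it, so that call does not describe every γδ library. Within the control diet 1 member passed (Trac; background 0.654%), and within the MCD diet 3 did (Trac, Traj30 and Traj43; background 2.65%).

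The segments with the largest fall were common in CD4+ libraries and near 0 in γδ libraries. Traj3 had 130 and 163 reads (control) and 372 and 31 (MCD) in wild-type CD4+ libraries and 0 in all 4 γδ libraries, at least 42.9-fold lower against a floor of 3 reads per library (adjusted p = 0.00698). Traj1 (60, 184, 114 and 182 reads in the same order, adjusted p = 0.0275) and Trav14n-3 (270, 58, 111 and 28, adjusted p = 0.0128) were also at 0 in every γδ library, at least 32.4-fold and 28.4-fold lower. Traj30 had 310, 198, 318 and 243 reads, and 3 in γδ control replicate 6 and 0 in the other γδ libraries (log2 fold change -9.07, SE 1.39, adjusted p = 0.00282). Traj8 had 192, 199, 177 and 176 reads, and 8 in γδ control replicate 7 only (log2 fold change -7.84, SE 1.78, adjusted p = 0.0242). Lack of overlap between the cell types was part of the rule that picked these 5 segments, so it is not a result. How many passed depended on the libraries. The count was 28 without γδ MCD replicate 4 and 18 without γδ MCD replicate 2, 6 and 8 without γδ control replicates 6 and 7, 5 or 6 without any 1 wild-type CD4+ library, and 11 or 12 without any 1 knockout library, which enters this comparison only through the shared estimate of the spread. Trac, Traj3 and Traj30 passed with each of the 12 libraries left out in turn. Trav14n-3 passed in 11 of these 12 fits, Traj8 in 7 and Traj1 in 6. With only the γδ and wild-type CD4+ groups fitted and filtered, 4 members passed (Trac, Traj1, Traj3 and Traj30), while Trav14n-3 (adjusted p = 0.0526) and Traj8 (0.0581) did not.

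A few α-locus segments ran the other way. Of 142 members tested, 2 were higher in all γδ than in all wild-type CD4+ libraries (1.41%, against 5.56% of all genes tested), and both carry -dv names. Trav13-4-dv7 (chr14:53757356-53757921) had 85, 49, 98 and 33 reads in the γδ libraries and 0 to 12 in CD4+ libraries (log2 fold change 5.36, SE 1.77, adjusted p = 0.0889). Trav15-2-dv6-2 (chr14:53649404-53649994) had 81, 30, 39 and 38 reads against 0 to 9 (log2 fold change 6.25, SE 1.98, adjusted p = 0.0849). Neither passed the threshold with edgeR and all libraries. Each passed in 4 of 8 other settings, with DESeq2 giving an adjusted p of 0.000552 for Trav13-4-dv7 and 0.00356 for Trav15-2-dv6-2. Without γδ MCD replicate 4 Trav13-4-dv7 also passed with edgeR (adjusted p = 0.0498). The other 6 -dv members did not share this pattern: Trav14d-3-dv8 (122 reads in wild-type CD4+ libraries) and Trav4-4-dv10 (133 reads) were at 0 in γδ libraries and passed as lower (adjusted p = 0.035 and 0.0437, in 2 and 1 of the 12 fits with a library left out), Trav16d-dv11 and Trav6-7-dv9 were at 0 there too, Trav21-dv12 had 14 reads in γδ control replicate 7 only, and Trav15-1-dv6-1 had 50 reads in that library and 0 to 2 in the other γδ libraries. Together the 8 -dv segments took 59.4%, 70.1%, 76.5% and 12.4% of Trav reads in the γδ libraries and 6.85% to 20.2% in CD4+ libraries. γδ MCD replicate 4 overlapped the CD4+ range.

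Joining segments in γδ libraries lay towards the 5′ end of the array, the end nearest the δ locus. The array was divided into Traj61 to Traj42 (18 members), Traj41 to Traj22 (20) and Traj21 to Traj1 (20); this division was chosen after the values were seen and carries no test. The 5′ block took 48.5%, 65.3%, 74.0% and 48.8% of Traj reads in γδ libraries against 11.3% to 34.4% in CD4+ libraries, without overlap. The 3′ block took 6.80% to 10.6% in γδ and 25.3% to 52.3% in CD4+ libraries, also without overlap.

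Single segments made up much of the 5′ block. Traj58 (chr14:54157280-54157342) had 10 and 46 reads in γδ control and 140 and 34 in γδ MCD libraries, against 0 to 23 in CD4+ libraries (γδ against wild-type CD4+ log2 fold change 4.22, SE 1.67, adjusted p = 0.135 with edgeR and 0.00479 with DESeq2, past the threshold in 3 of 9 other settings). Traj61 (chr14:54155005-54155076), a pseudogene without the motif in the sequences above, had 31 and 73 reads in γδ control and 0 in both γδ MCD libraries, and 0 to 13 in CD4+ libraries. Traj60 had 14, 1, 0 and 18 reads in γδ libraries and 0 to 2 in CD4+ libraries. Other segments of the block were high in 1 γδ library each, chosen here after their values were seen: Traj43 had 59 reads in control replicate 6, Traj48 had 44 in MCD replicate 2, and Traj54 and Traj55 had 62 and 43 in MCD replicate 4. These were at 0 or 1 read in the other 3 γδ libraries.

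Use of segments in γδ libraries, meaning their shares of reads, was uneven from library to library. Reads counted per segment do not show whether the segment was joined in a receptor chain, which was not tested. In γδ MCD replicate 4, 501 of 588 Trav reads were Trav6-1 (85.2%) and 260 of 373 Trbj reads were Trbj1-5 (69.7%), while Trav6-1 had 0 or 1 reads and Trbj1-5 had 0 in the other 3 γδ libraries. Traj58 made up 56.0% of Traj reads in γδ MCD replicate 2. Trbv13-2 (chr6:41121396-41121832) had 541 and 309 reads in γδ control libraries, 84.1% and 66.3% of their Trbv reads, but 3 and 20 reads in γδ MCD libraries. Replicates of a γδ group shared 12.6% and 39.9% of Trav usage (the sum over segments of the lower of both shares), and 11.9% and 26.6% of Traj usage.

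**Figure D2:**
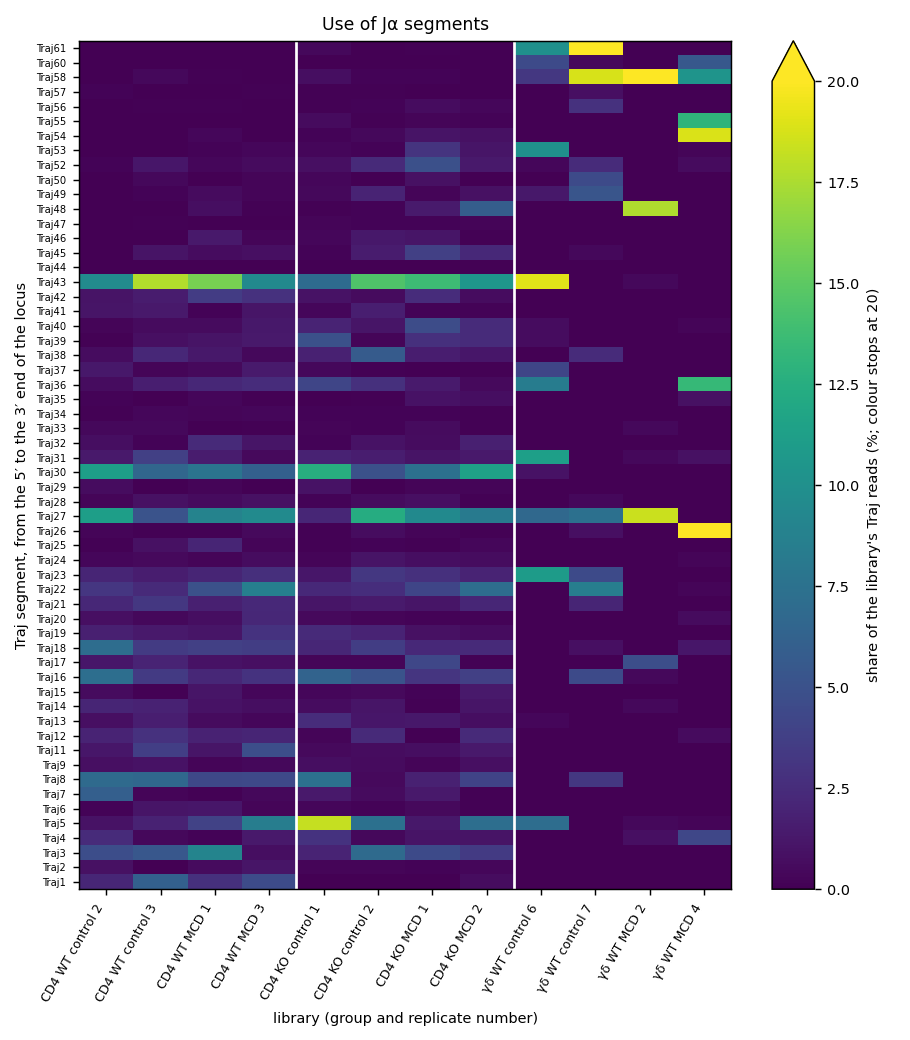
Share of each library's Traj reads taken by each joining segment, in percent (colour stops at 20%), with segments in 5′ to 3′ order down the axis and libraries across it, white lines separating wild-type CD4+, knockout CD4+ and γδ libraries. Traj43, Traj30 and Traj27 recur across CD4+ libraries, whereas γδ libraries show few segments each, many of them near the top of the array.

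Diversity was summarised as the effective number of segments, which is the number of equally used segments that would give the same Shannon entropy. For Trav it was 20.2 to 34.2 in CD4+ libraries and 1.84 to 4.78 in γδ libraries, and for Traj 22.9 to 28.5 against 3.52 to 11.4. Thinned to the class total of the shallowest library, these ranges were 17.9 to 29.5 against 1.83 to 4.77 and 20.7 to 25.9 against 3.52 to 11.3, still without overlap. For Trbv the numbers overlapped at 3.998 to 10.2 in CD4+ and 2.14 to 4.64 in γδ libraries, and also when thinned to 8 reads (2.51 to 5.02 against 1.68 to 3.65), a depth too low to compare diversity. For Trbj they overlapped at 5.05 to 10.9 against 2.80 to 6.40.

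**Figure D3:**
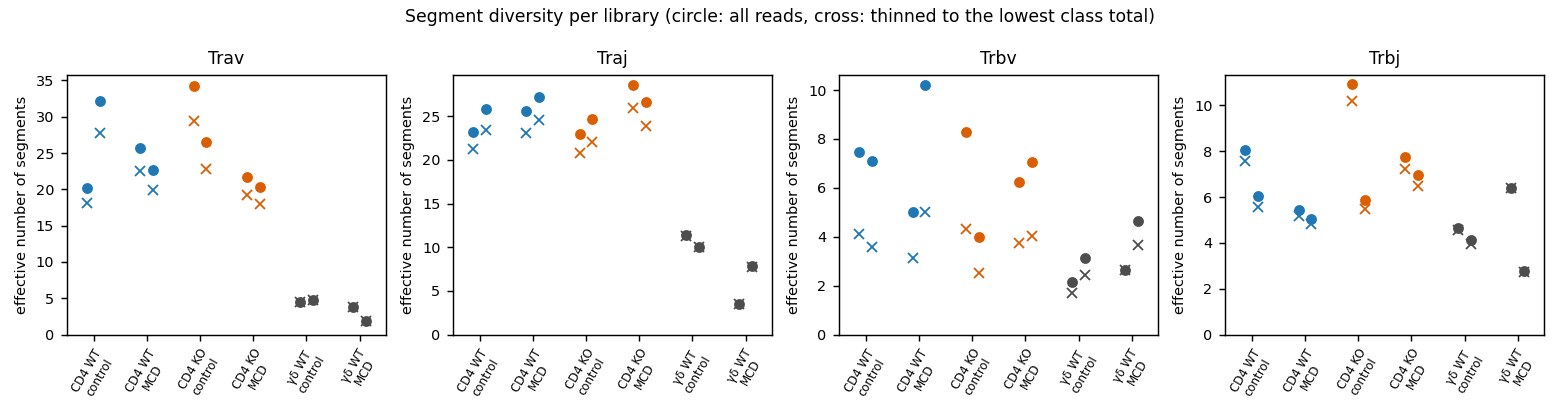
Effective number of segments per library for the 4 segment classes, on linear axes from 0; circles use all reads and crosses are means of 100 draws thinned to the lowest class total, with colours as in the plot of levels. Trav and Traj points of γδ libraries lie below every CD4+ point, while Trbv and Trbj points overlap.

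In CD4+ T cells the most used β and joining segments were as follows. Trbv13-2 led with 35.8% ± 15.9 of Trbv reads (SD, n = 8), followed by Trbv2 at 21.5% ± 6.15 and Trbv20 at 11.3% ± 9.90. Trbj2-7 led the Trbj with 34.6% ± 11.4, then Trbj1-5 at 18.7% ± 10.9 and Trbj2-6 at 8.58% ± 3.18. Traj43 led the Traj with 12.3% ± 3.68, then Traj30 at 8.50% ± 2.82 and Traj27 at 8.38% ± 3.33. Each of these appeared in every CD4+ library, though levels varied: Trbv20 ran from 0.97% to 25.2%. Replicates shared a median of 68.4% of Traj usage (56.8% to 72.6%), 65.9% of Trbv usage (52.6% to 71.9%) and 67.5% of Trbj usage (49.3% to 81.9%). For libraries of different genotypes the medians were 63.8%, 63.2% and 66.1%.

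For Trav, the leading segment was a different one in many libraries: Trav14n-3 and Trav7-1 in the wild-type control replicates (19.5% and 15.7%), Trav14-3 and Trav3-3 in the wild-type MCD replicates (20.8% and 22.1%), Trav7-1 and Trav7-4 in the knockout control replicates (9.46% and 14.2%), and Trav12-3 in both knockout MCD replicates (22.996% and 25.2%). Replicates shared a median of 53.7% of Trav usage (34.9% to 70.6%), libraries of the same genotype on different diets 46.8% (30.0% to 57.9%), and libraries of different genotypes 38.3% (26.4% to 47.8%). These ranges overlap with each other and with those of the other classes, whose numbers of segments differ, and they are given as a description.

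Between knockout and wild-type CD4+ T cells, no member passed the threshold with edgeR averaged over diets, where 0.00617% of all genes tested did. None passed on the control diet (background 0.0247%) or on the MCD diet (0) either. At an unadjusted p under 0.05 there were 2 members on the control diet, against 4.03% of all genes, and 4 on the MCD diet, against 2.08%. Averaged over diets 13 of 142 had an unadjusted p under 0.05, against 4.42% of all genes, and with DESeq2 Traj1 (adjusted p = 0.0345) and Trav12-3 (adjusted p = 0.00721) passed. Of the 142, 7 were higher and 5 lower in all 4 knockout than in all 4 wild-type libraries, a share of 8.45% against 3.12% of all genes tested. Of these 12, 11 lie in the α locus and 1, Trbj1-3, in the β locus. Most members lie in the α locus in any case (68 Trav, 58 Traj and Trac of 164, before the filter on low counts). The count is therefore not read as particular to that locus. Summed over members, Trav reads were higher in all knockout libraries (74.7 to 160 CPM) than in all wild-type CD4+ libraries (56.5 to 68.0 CPM), while Traj sums overlapped.

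The 12 segments that separated the genotypes are given as values. Trav12-3 (chr14:53621657-53622245) had 155 and 54 reads (control) and 373 and 463 reads (MCD) in knockout libraries. In wild-type CD4+ libraries it had 21 and 2 (control) and 1 and 16 (MCD) (log2 fold change 4.42, SE 1.38, unadjusted p = 0.00656, adjusted p = 0.9999). Trav9d-1 (chr14:52792316-52792777) had 186, 255, 91 and 68 reads in knockout and 0, 17, 5 and 2 in wild-type libraries. Traj1 went the other way, with 0, 0, 1 and 34 reads in knockout and 60, 184, 114 and 182 in wild-type libraries (log2 fold change -6.42, SE 1.84, unadjusted p = 0.00542, adjusted p = 0.9999). All 3 kept the groups apart on both diets, but the 34 reads in knockout MCD replicate 2 lay nearest the wild-type range of Traj1.

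Trav9n-1, Trav3-1, Traj55, Trav7-6, Trav14-3, Trav16 and Trbj1-3 lie outside the naming rule and were chosen after their values were seen, for the same separation. Trav9n-1 (chr14:53101801-53102265), a pseudogene, had 40, 20, 22 and 23 reads in knockout libraries and 0 in all 4 wild-type libraries, at least 8.99-fold higher against the floor of 3 reads per library. Trav3-1 (chr14:52580665-52581213) had 44, 76, 54 and 34 reads in knockout and 11, 8, 0 and 0 in wild-type libraries. Traj55 had 19, 4, 8 and 10 against 1, 0, 0 and 0. Trav7-6 had 0, 0, 0 and 1 reads in knockout and 9, 13, 20 and 3 in wild-type libraries, and Trav6-7-dv9 had 0, 0, 0 and 1 against 5, 27, 19 and 3. None of these 5 segments had more than 76 reads in any CD4+ library. Trav14d-3-dv8 had 180, 100, 141 and 159 reads in knockout and 34, 38, 48 and 2 in wild-type libraries, and Trbj1-3 had 71, 18, 25 and 26 against 14, 9, 7 and 2. Trav14-3 had 6, 4, 9 and 7 reads in knockout and 36, 15, 288 and 32 in wild-type libraries, and Trav16 had 1, 0, 1 and 0 against 8, 9, 10 and 8. By name, Trav14-3 and Trav14d-3-dv8, which moved in opposite directions, are copies of the same segment. Another copy, Trav14n-3, overlapped between genotypes, at 42, 27, 119 and 145 reads in knockout and 270, 58, 111 and 28 in wild-type libraries. Copies of Trav16 (Trav16d-dv11 and Trav16n) and of Trav9n-1 (Trav9-1) overlapped too. Whether reads were split between copies in these rows was not tested. Several gaps are a few reads wide.

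Because reads were assigned to the reference of C57BL/6, and the labels give no strain for the knockout, whether knockout chromosomes carry the same segment sequences was not tested.

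**Figure D4:**
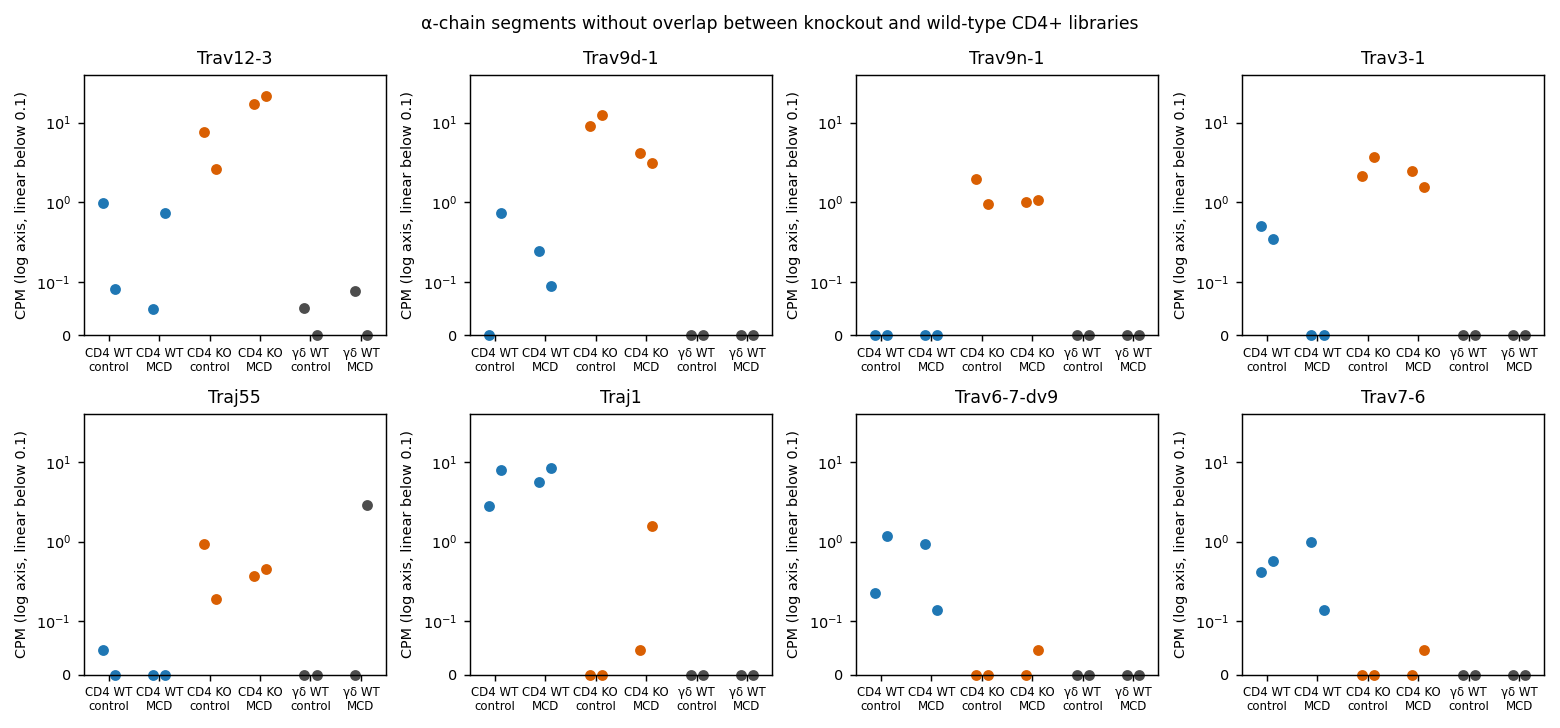
Level of 8 α-chain segments in every library, in CPM on a log axis that is linear below 0.1, with groups and colours as in the plot of levels. Each segment separates all 4 knockout from all 4 wild-type CD4+ libraries; Trav12-3, Trav9d-1, Trav9n-1, Trav3-1 and Traj55 are higher in knockout, and Traj1, Trav6-7-dv9 and Trav7-6 lower.

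**Figure D5:**
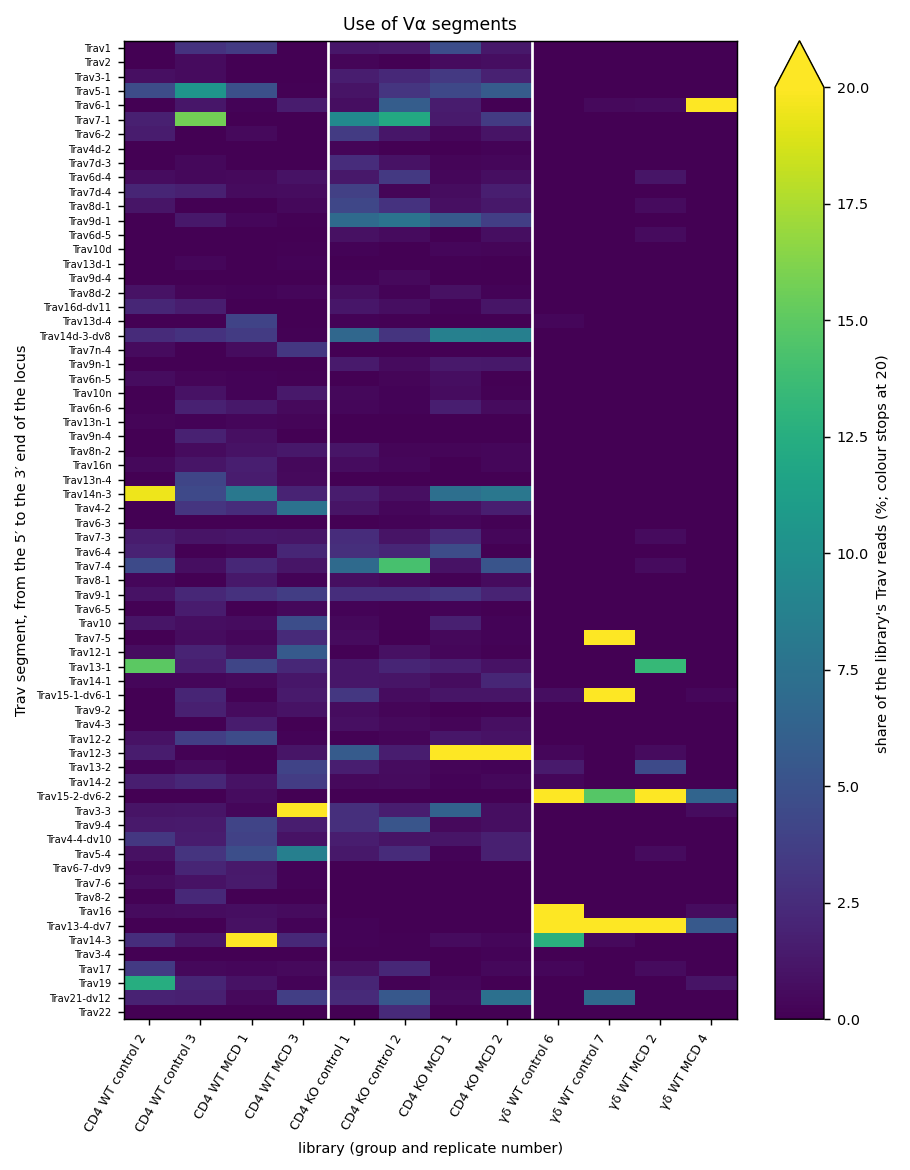
Share of each library's Trav reads taken by each variable segment, in percent (colour stops at 20%), with segments in 5′ to 3′ order down the axis and libraries across it, white lines separating wild-type CD4+, knockout CD4+ and γδ libraries. The top segments differ from library to library in CD4+ T cells. Counting any segment with a read, γδ libraries hold 7 to 13 segments each and CD4+ libraries 50 to 59. Depth differs, at 179 to 588 Trav reads in γδ and 1304 to 3323 in CD4+ libraries.

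Diet was compared within each cell type. No member passed with edgeR on the MCD diet against the control diet in γδ T cells (0 of all genes passed as well), in wild-type CD4+ T cells (0), in knockout CD4+ T cells (0.0370%), or in CD4+ T cells averaged over genotypes (0.0370%), and none passed for the interaction of diet and genotype (0). At an unadjusted p under 0.05 there were 16, 2, 1, 4 and 0 members of 142, against 17.5%, 2.13%, 6.06%, 6.08% and 4.33% of all genes. In γδ T cells most of the 142 have few or no reads to test, since 20 were kept by the filter on γδ libraries alone. In γδ T cells DESeq2 called 11 of 164 members and 8.93% of all genes, with Trbv13-2 among the members (adjusted p = 0.000448, against 0.12 with edgeR), with the libraries' values given above. Markers of other cells moved with diet in these libraries: the summed level of 8 sinusoidal endothelium genes was 637 to 1288 CPM on control and 50.5 to 94.2 on MCD, with 0 and 3 of them at 0 in both libraries, and that of 8 B and plasma cell genes was 623 to 659 against 281.9 to 493.2 CPM, with 1 and 2 at 0 in both. Their part in the result was not tested. Without γδ MCD replicate 2 there were 2 members that passed with edgeR, Trac among them (log2 fold change 1.22, adjusted p = 0.0237), and without γδ MCD replicate 4 there were 2, Trbv13-2 (-6.44, adjusted p = 0.0327) and Trbc2 (-3.16, adjusted p = 0.00199).

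Trac was lower in all MCD than in all control CD4+ libraries, at 355 ± 23.9 against 519 ± 103 CPM (SD, n = 4 each; log2 fold change -0.53, SE 0.27, adjusted p = 0.848). Trbc1 also did not overlap, at 117 ± 20.3 against 152 ± 15.2 CPM (adjusted p = 0.991). These are 2 of 6 members without overlap, of 142, against 4.78% of all genes tested. Trav7-1 (chr14:52654817-52655328) had 24 and 205 reads in wild-type libraries of the control diet against 1 and 0 on MCD, and 255 and 404 against 24 and 64 in knockout libraries. It was lower on the MCD diet within each genotype (averaged log2 fold change -5.16, SE 1.43, unadjusted p = 0.0038, adjusted p = 0.501), and DESeq2 called it (adjusted p = 0.0031).

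Traj18, the joining segment of the invariant NKT receptor, was measured in every CD4+ library. Wild-type CD4+ libraries had 198 and 104 reads (control) and 156 and 146 (MCD). Knockout libraries had 65 and 105 (control) and 68 and 118 (MCD), and γδ libraries 0 and 2 (control) and 0 and 4 (MCD). As a share of Traj reads this was 7.16% (95% Wilson interval 6.26% to 8.18%) and 3.47% (control) and 3.79% and 3.67% (MCD) in wild-type libraries, and 2.11% and 3.63% (control) and 2.27% and 2.41% (MCD) in knockout libraries. In the γδ libraries it was 0%, 0.82%, 0% and 1.22%, where a count of 0 allows up to 0.971% and 1.20%. Intervals and floors cover counting error only.

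Traj18 lies in the Traj21 to Traj1 block, which as a whole took 6.80% to 10.6% of Traj reads in γδ and 25.3% to 52.3% in CD4+ libraries. A lower share in γδ libraries is therefore not particular to Traj18. The share of Traj18 was lower in γδ than in CD4+ T cells, 0.51% ± 0.61 (SD, n = 4) against 3.56% ± 1.61 (SD, n = 8), with no overlap (exact 2-sided permutation test p = 0.00404, adjusted 0.0242 over 6 tests). With 1 γδ library left out the adjusted p was 0.0727, the smallest that 3 against 8 allows after this adjustment. Knockout CD4+ T cells had 2.61% ± 0.69 and wild-type 4.52% ± 1.76 (n = 4 each), with 1 knockout library inside the wild-type range (exact permutation p = 0.0571, adjusted 0.171), and the diets gave 3.03% ± 0.81 on MCD and 4.09% ± 2.16 on control (exact permutation p = 0.629, adjusted 0.743). For the level of Traj18 edgeR gave a log2 fold change of -6.24 (SE 1.46, adjusted p = 0.0251) for γδ against wild-type CD4+ T cells, a call that held in 6 of 12 fits with a library left out and was lost with only the groups compared (adjusted p = 0.0743), and -0.74 (SE 1.14, adjusted p = 0.9999) for knockout against wild-type. Other genes of invariant NKT cells are also expressed by other T cells. Averaged over diets, 13 of 15 such genes tested were lower in knockout than in wild-type CD4+ T cells, and none passed. Their median log2 fold change of -0.81 compares with -0.02 for all genes. This direction was seen on the control diet (13 lower, median -1.02) but not on the MCD diet (8 higher and 7 lower, median 0.11). The summed level of the 15 genes was 509 to 577 CPM in knockout control and 884 to 1173 CPM in the other CD4+ groups.

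Trbv segments often paired with the invariant α chain gave no separation of genotypes. Trbv13-2, Trbv29 and Trbv1 had 288 to 1414, 0 to 14 and 9 to 63 reads in knockout and 86 to 619, 1 to 41 and 12 to 37 in wild-type CD4+ libraries. Trav1, the MAIT variable segment, had 33, 45, 77 and 24 reads in knockout and 0, 38, 48 and 0 in wild-type CD4+ libraries, and 0 in γδ libraries. Traj33, its partner, had 3 to 18 reads in CD4+ libraries and 0 or 1 in γδ libraries. Both genotypes overlapped for each of them.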

How the data were processed

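RNA of sorted CD4+ and γδ T cells was sequenced on an Illumina instrument in 12 libraries. Per the submitters' processing notes, bcl2fastq, STAR, featureCounts and DESeq2 were used with the mm10 (GRCm38) build; versions, strand setting and treatment of multiply mapped reads are not given in the sources used here. The authors deposited raw counts per gene, which were the main input, and FPKM values, which were used only as alternatives. Groups came from the labels.

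Genes were kept by filterByExpr (minimum count 10, minimum total 15), leaving 16218. All 12 libraries were fitted in edgeR 4.0.16 under R 4.3.3, with TMM scaling, 1 coefficient per group, 2-sided quasi-likelihood tests, Benjamini-Hochberg adjustment and a threshold of 0.05. The fit was tested on simulated data. Alternatives were other scalings, filters, tools and pseudocounts, summed copies, a replicate block, and leaving out each library with the same 16218 genes kept. Usage is a segment's share of its class's reads in a library, whether or not those reads came from joined segments. Shares were tested by exact permutation (scipy 1.17.1). Annotation and transcript sequences came from GENCODE M21. Named were the constants, the segments of invariant NKT and MAIT cells, -dv segments and the most used segments. Also named were members with the largest change without overlap between libraries, at a mean of at least 5 CPM. Exceptions are stated. The members, gene lists and tests were chosen with earlier results of these data known.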

Additional observations from a re-analysis of the deposited data

Results flagged for a closer look

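The share of Traj18 among Traj reads was 7.16% in wild-type control CD4+ replicate 2 and 3.47% to 3.79% in the other 3 wild-type CD4+ libraries. Its distance to the nearest of them was 0.913 of the whole range of the 4 values. It was the only sample far from the others among 30 sets tested, and chance gives about 1 such set in 20.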

How the results depend on the processing

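Member counts varied with the test. In parentheses are the shares of all genes called. DESeq2 tested 25883 genes under its own filter, and fits of only the groups compared filtered anew, so both also changed the genes tested. Members called in γδ T cells for diet numbered 0 with edgeR, 2 with no filter (2.14%), 11 with DESeq2 (8.93%), 2 with log2(FPKM + 1) (0.913%) and 5 with log2(FPKM + 0.1) (1.29%), and 0 to 2 with a library left out. DESeq2 called 1 for diet in wild-type CD4+ T cells (0.189%), 1 for diet averaged over genotypes (0.935%), 1 for knockout against wild-type on the control diet (0.618%; also 1 with log2(FPKM + 0.1), 0.0247%) and 2 averaged over diets (0.379%); leaving out a library called 0 in each of these. For γδ against wild-type CD4+ T cells averaged over diets the 22 became 52 with library-size scaling (12.2%), 13 of 27 with a mean of at least 50 counts (10.3%), 81 of 164 with DESeq2 (12.95%; 3 higher), 55 with limma-voom (10.02%), 54 and 76 with log2(FPKM + 1) and log2(FPKM + 0.1) (6.88% and 8.88%), 4 of 119 with only the groups compared (3.12%) and 5 to 28 with a library left out. Within the control diet the 1 became 3 with no filter (1.37%), 36 with DESeq2 (4.36%), 6 with limma-voom (1.5045%), 21 and 31 with FPKM (1.77% and 1.74%), and 1 to 4 with a library left out. Within the MCD diet the 3 became 8 with library-size scaling (4.61%), 8 with no filter (4.14%), 5 with a mean of at least 50 (6.22%), 52 with DESeq2 (12.1%), 18 with limma-voom (4.85%), 36 and 47 with FPKM (4.06% and 5.75%), 0 with only the groups compared (0.0713%), and 1 to 5 with a library left out (1 without either wild-type MCD library); the cause was not tested. The mean effective number in CD4+ libraries became 19.0 for Trav with copies summed, 23.1 for Traj and 3.80 for Trbv when thinned. Leaving out a library gave means of 24.2 to 26.2 (Trav), 25.1 to 25.9 (Traj), 6.45 to 7.34 (Trbv) and 6.45 to 7.29 (Trbj) in CD4+ and 3.40 to 4.38, 7.14 to 9.77, 2.65 to 3.48 and 3.87 to 5.07 in γδ libraries. It moved the γδ against CD4+ difference in Traj18 share from -3.29 to -2.54 points, the diet difference from -1.72 to -0.04 and the genotype difference from -2.27 to -1.04, and the differences in Trbc1 share from 1.46 to 21.1, from -2.30 to 4.85 (reversed without knockout control replicate 2) and from -8.62 to -2.76. Trbc1 in knockout against wild-type CD4+ T cells, at -0.00, was 0.019 with limma-voom and -0.14 to 0.16 with a library left out, and Trac for diet in γδ T cells ran from -0.34 (without γδ MCD replicate 4) to 1.22, and Trbc2 from -3.16 to 0.0089 (without γδ MCD replicate 2). Replicate numbers were checked in knockout libraries, where deviations of same-numbered libraries correlated at -0.00 across 16218 genes. With 2 libraries per group this cannot tell whether same-numbered libraries share a mouse or batch. The replicate block called 0 members for diet in knockout and averaged CD4+ T cells. A library left out leaves its group with 1 sample, assumed to vary like the other groups. Class totals down to 8 reads limit what γδ libraries show.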
